A study of Mus musculus with 24 samples.

Results

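The genes described here are those whose symbol places them in 7 solute carrier (Slc) families that move amino acids across membranes, Slc1, Slc3, Slc6, Slc7, Slc36, Slc38 and Slc43. The rule was the family number in the symbol alone and used no measured value. It found 38 of the 16617 genes in the deposited table: 5 of Slc1, 1 of Slc3, 9 of Slc6, 9 of Slc7, 2 of Slc36, 9 of Slc38 and 3 of Slc43. A family name is not a substrate, so the rule also took carriers of creatine (Slc6a8), taurine (Slc6a6), betaine (Slc6a12) and purine bases (Slc43a3). Slc3a1, the second heavy chain of the Slc7 carriers, was not analysed here.

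The RNA came from mouse embryonic stem cells of 4 lines in 2 states, read by 3′ tag sequencing, with 3 samples per group in the labels. Wild-type cells and MLL3CD_MLL4CD cells, called catalytic-dead here, are of the R1 line. MLL3KO_MLL4fl cells, called floxed, lack MLL3 and carry floxed MLL4, and MLL3KO_MLL4KO cells, called knockout, lack both. MLL3 and MLL4 are histone methyltransferases that act at enhancers. Naive cells were kept in LIF with inhibitors (LIF2i in the labels), and formative cells were collected 63 h after withdrawal. The floxed line therefore served as the control for loss of MLL4 in cells that already lack MLL3, and wild type as the control for loss of catalysis by both enzymes. Each genotype is represented by 1 line, so a difference between genotypes cannot be told apart from a difference between lines.

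Amino acid carriers work by a few mechanisms. Slc1, Slc6 and most Slc38 proteins drive uptake with the sodium gradient. The light chains of Slc7, such as Slc7a5 and Slc7a11, exchange one amino acid for another and reach the cell surface bound to the heavy chain Slc3a2 (CD98). The cationic carriers of Slc7, such as Slc7a1 and Slc7a3, take up arginine and lysine without a heavy chain. Slc36a1, Slc38a7 and Slc38a9 work at the lysosome, where Slc38a9 passes on the arginine level to the kinase complex mTORC1. When amino acids run short, the factor ATF4 raises many of these genes through a composite element (CARE). Mouse embryonic stem cells are known for a high demand for threonine.

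Promoter windows from RefSeq (GRCm38.p6, 250 bases before to 50 after a start) were found for 25 of the 38 genes. These 25 had 40 windows. The CARE letters TGATGNAA, searched on both strands, stood in 3.97% of all 32851 windows and in 4 of these 40, which belong to 3 carriers, Slc7a11, Slc7a7 and Slc1a4. All 3 are shown. Each rose over the transition in wild-type cells, as given below with values and exceptions, but so did Slc1a6 and Slc43a1, whose windows held no CARE match. A link of the element to these changes was not tested. Capitals mark the element, or its reverse complement, and each line runs 5′ to 3′ from 150 bases before to 10 after the start on the minus strand.
Slc7a11, chr3:50443604-50443763: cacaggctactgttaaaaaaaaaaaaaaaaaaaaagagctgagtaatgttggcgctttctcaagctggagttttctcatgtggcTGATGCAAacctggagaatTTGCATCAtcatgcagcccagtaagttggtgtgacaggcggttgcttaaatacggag
Slc7a7, chr14:54417935-54418094: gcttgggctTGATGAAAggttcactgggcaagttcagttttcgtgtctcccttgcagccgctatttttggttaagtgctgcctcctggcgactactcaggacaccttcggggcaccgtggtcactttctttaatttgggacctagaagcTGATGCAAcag
Slc1a4, chr11:20332704-20332863: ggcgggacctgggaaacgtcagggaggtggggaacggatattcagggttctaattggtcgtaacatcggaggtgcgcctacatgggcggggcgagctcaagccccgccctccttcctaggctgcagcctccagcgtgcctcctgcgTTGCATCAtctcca
Slc7a11 held the element as a facing pair, and Slc7a7 held it at both ends of the stretch shown. A letter match is a description and not a measured binding site. The E-box CACGTG, which reads the same on both strands and is the letters bound by MITF and TFEB, stood in 7.15% of all windows. It stood in 6 of the 40 carrier windows, those of Slc1a6, Slc36a1, Slc38a5, Slc38a7, Slc43a1 and Slc6a16.

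The deposited values are means of log2 CPM (counts scaled to the library's total, with a prior count of 2) over the libraries of a group. Counts of single libraries were recovered from these means for 25 carriers in all 8 groups and for 5 in some. The other 8, all abundant (Slc3a2, Slc6a6, Slc7a1, Slc7a3, Slc7a5, Slc38a1, Slc38a2 and Slc38a4), were recovered in the naive wild-type column alone, and stand here as group means without a test. All 38 carriers passed the filter on low values, 10 counts at the median library size in at least 3 libraries. Slc38a5, Slc6a7 and Slc6a12 were among those that reached it through naive libraries alone, and Slc6a11, Slc6a13 and Slc6a16 through formative ones, so a difference between states was partly built into their passing. The 23 recovered libraries held 4808564 to 15425959 counts, and each was closest to a library of its own group. The naive wild-type column averaged 2 libraries, a and b. The formative knockout column as deposited also averaged the third formative catalytic-dead library, which was left out of that group. Where that library was not recovered, as for the 8 abundant carriers, the formative catalytic-dead mean was taken for it. Formative knockout means of such genes are therefore estimates. Kmt2c (MLL3) stood at 15.7 to 23.4 CPM in floxed and knockout groups against 35.4 to 67.4 CPM in the others, and Kmt2d (MLL4) at 17.6 and 20.2 CPM in knockout cells against 20.3 to 35.7 CPM elsewhere. A 3′ tag outside a deletion does not test it. Summed naive pluripotency markers (7 genes) were at 2021 to 2293 CPM in naive and 410 to 578 CPM in formative groups, and 6 formative markers at 99.2 to 174 CPM and 1447 to 2323 CPM, as the labels say. Of 8 fibroblast markers 5 were measured, with sums of 3.21 to 7.18 CPM in naive and 10.2 to 27.7 CPM in formative groups. The sums thus moved with the state, but single markers differed. Dcn stood at 0.264 to 0.563 CPM in naive and 1.99 to 12.3 CPM in formative groups. Pdgfrb went from 2.61 to 0.444 CPM in wild-type, 1.57 to 0.514 CPM in floxed and 3.11 to 1.41 CPM in catalytic-dead cells. In knockout cells Pdgfrb went from 0.301 to 0.602 CPM. Trophoblast markers (5 measured) summed to 18.3 CPM in naive wild-type, 33.5 CPM in naive floxed, 67.3 CPM in naive knockout and 59.9 CPM in naive catalytic-dead cells. In formative groups they summed to 57.6 to 84.4 CPM. The keratin gene Krt18 stood at 5.75, 12.5, 44.5 and 28.7 CPM in the naive groups in that order. Eomes differed from it, with 6.83, 13.1, 1.81 and 19.1 CPM. Of the primitive endoderm markers (4 measured), Dab2 stood at 3.45, 2.53, 24.9 and 49.6 CPM in the naive groups in the same order. Sparc went another way, with 478, 780, 296 and 502 CPM, and Gata4 and Gata6 stayed at 0.331 to 1.29 CPM. The sums of all 4 were 482, 784, 323 and 554 CPM, lowest in naive knockout cells. Mesendoderm markers (5 measured) summed to 34.6 CPM in formative wild-type and 9.08 to 11.5 CPM in the other formative groups. Eomes, which is also among the trophoblast markers, gave 21.1 CPM of the formative wild-type sum. Neuroectoderm markers (4 measured) summed to 19.7 to 32.7 CPM in naive and 52.2 to 103 CPM in formative groups. The part of these cell types in the results was not tested. In bulk RNA, fewer cells with a transcript and less of it per cell cannot be told apart.

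Carrier levels covered a wide range. The 3′ tags count transcripts irrespective of length, but how evenly they capture different genes was not tested, so ranks between genes are rough. The shared pluripotency markers Pou5f1 and Sox2, for example, stood at 5.58 to 9.54 CPM and 93.9 to 272 CPM over the groups. Slc38a4, Slc3a2 and Slc7a3 led, with group levels of up to 751, 340.1 and 402 CPM. At the other end Slc6a11 and Slc6a12 had no count in several groups. By the mean log2 CPM over the 8 groups, Slc1a5 (42.3 to 91.3 CPM over groups) and Slc1a4 were highest in the Slc1 family, although Slc1a3 lay above Slc1a4 in formative cells, in Slc6 Slc6a6 and Slc6a8, in Slc7 Slc7a3 and Slc7a5, in Slc38 Slc38a4 and Slc38a2, and in Slc43 Slc43a2 and Slc43a1. The heat map shows this order and the change of state within most rows.

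**Figure D1:**
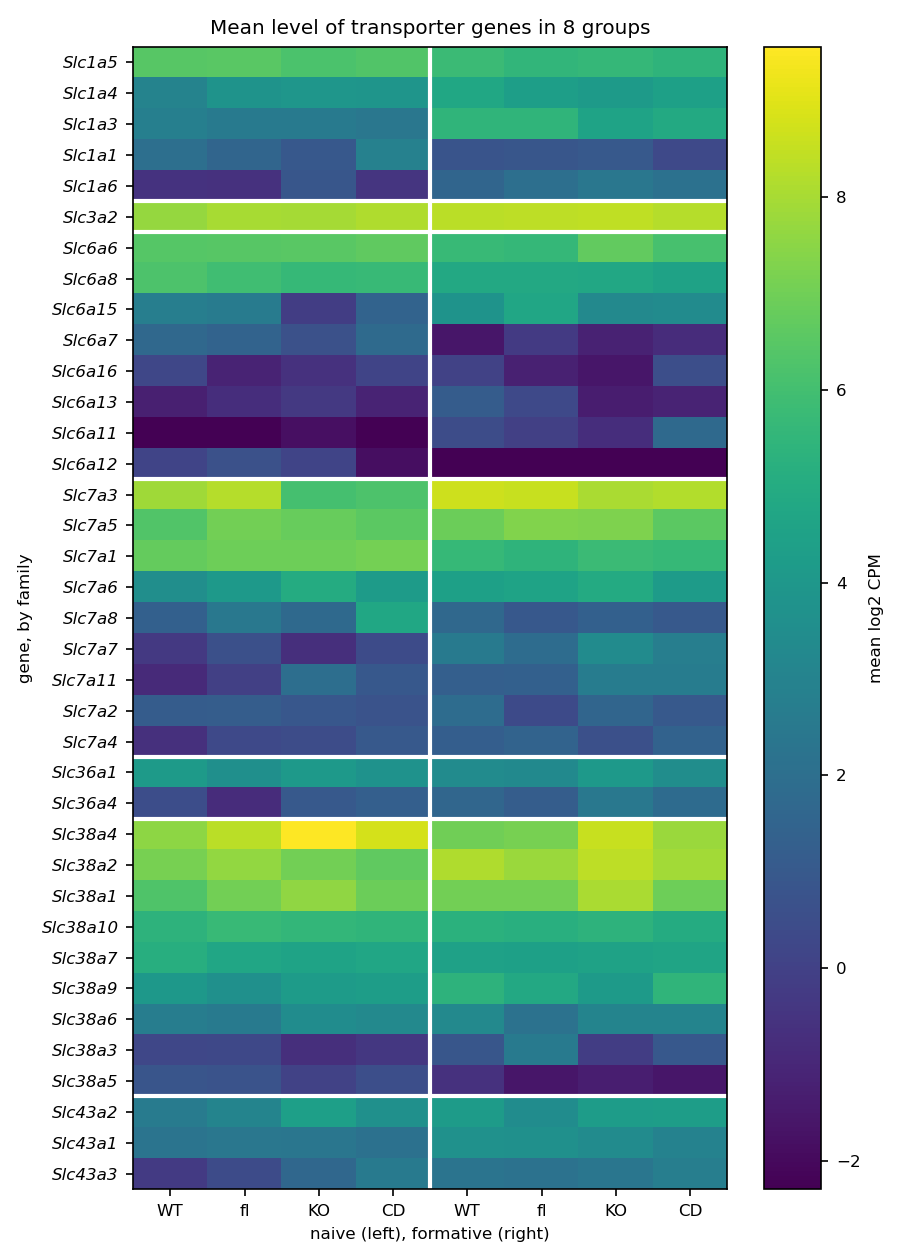
Mean log2 CPM of the carriers reported here (rows, by family and falling mean level) in the 8 groups (columns; WT wild type, fl floxed, KO knockout, CD catalytic-dead). Abundant rows such as Slc3a2 and Slc38a4 are bright in every column, Slc7a3 is darker in naive KO and CD, and the darkest cells of Slc6a11 and Slc6a12 hold no count.

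Over the transition most tested carriers changed in wild-type cells. Of 29 tested, 14 rose and 7 fell at an adjusted p under 0.05 (limma, Benjamini-Hochberg over all tested genes), where 31.9% of all tested genes passed (19.5% higher, 12.4% lower). In floxed cells 10 rose and 5 fell of 26 (all genes 33.9%, with 22.3% higher and 11.6% lower), in catalytic-dead cells 10 rose and 6 fell of 28 (29.5%, with 18.3% and 11.2%), and in knockout cells 6 rose and 2 fell of 27 (27.1%, with 21.5% and 5.56%). The share of carriers called was thus near the background in knockout cells and above it in the other 3 lines, a difference between lines that was not itself tested. The wild-type calls included Slc38a5, Slc6a7, Slc6a12, Slc6a11 and Slc6a13. The floxed calls included Slc38a5, Slc6a7, Slc6a12 and Slc6a11, the catalytic-dead calls Slc38a5, Slc6a7 and Slc6a11, and the knockout calls Slc6a7 and Slc6a12. For these genes a difference between states was partly built into passing the filter, as said above. The share without them was not computed in any line. The wild-type count fell to 12 without naive wild-type library b, and the lone library left was assumed to vary like those of other groups. The median difference of all 38 was 0.70 log2 in wild-type cells against 0.14 for all genes, 0.21 against 0.13 in floxed, 0.19 against 0.19 in knockout and 0.07 against 0.06 in catalytic-dead cells. Placing Slc6a11 and Slc6a12 at their lower bounds left these medians as they were. Median-of-ratios scaling shifted all genes by -0.16, -0.15, -0.27 and -0.08 log2 in these 4 comparisons, and reversed no called carrier. In the knockout transition 2453 genes were higher and 633 lower, and 1777 and 1074 with size factors. Of 25 carriers tested in all 4 lines, Slc6a15, Slc1a6 and Slc43a1 rose in each line, and Slc6a7 fell in each. The share of all genes with the same call in 4 lines is not given here, so these stand as single genes only. Carriers without a test are described below where their group means lie at least 2-fold apart, to be read beside the share of all untested genes that far apart. Over the transition that share was 3.98% lower in wild-type cells, 8.19% higher and 6.91% lower in floxed, 8.36% higher and 4.65% lower in knockout and 6.19% higher and 5.79% lower in catalytic-dead cells. For knockout against floxed cells it was 2.99% higher and 3.51% lower in the naive and 3.61% higher in the formative state, and for naive catalytic-dead against wild type 3.13% higher and 1.38% lower.

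**Figure D2:**
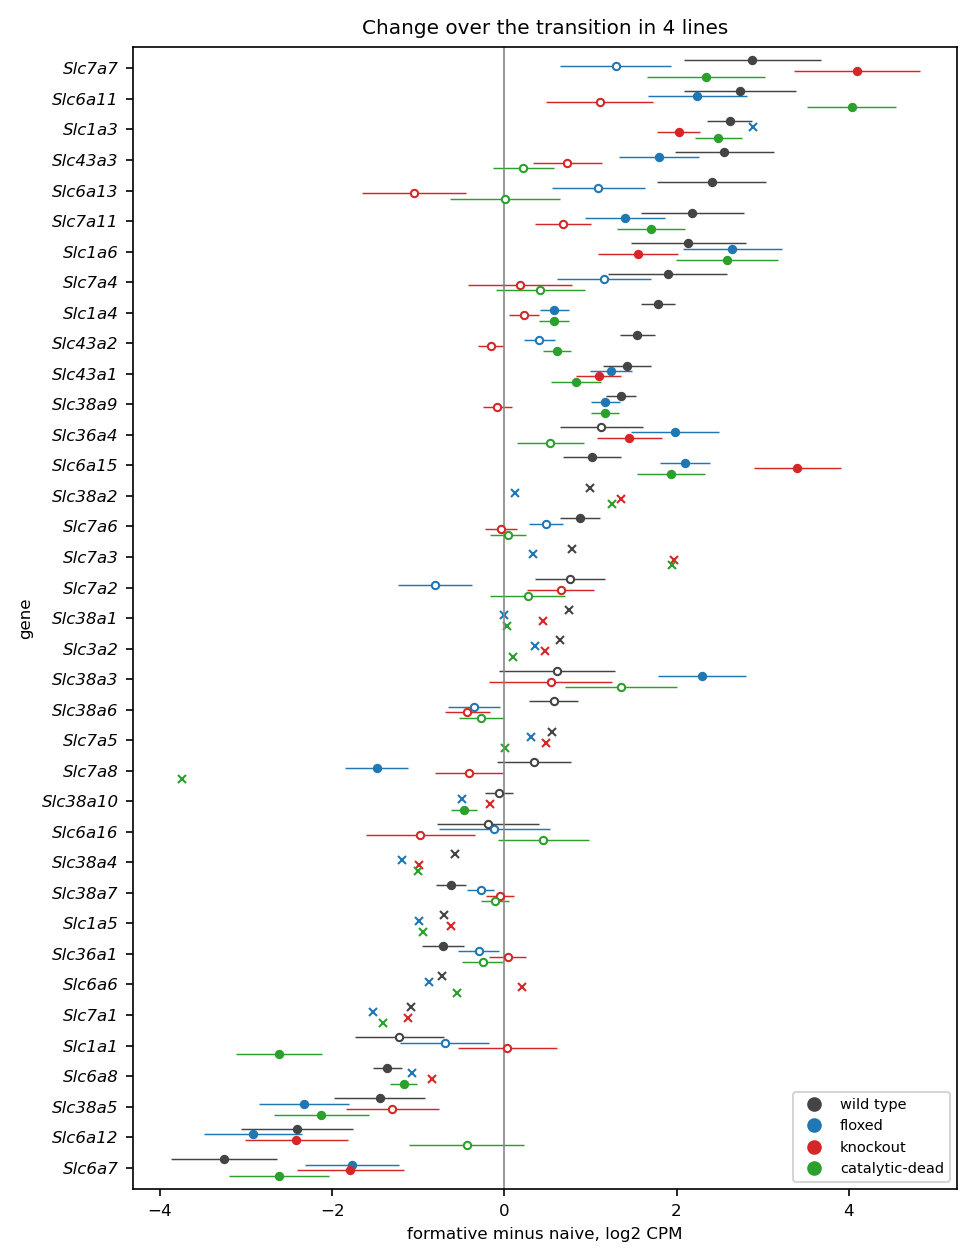
Formative minus naive level (log2 CPM) of each carrier in 4 lines. Circles are limma estimates with their SE, filled where the adjusted p was under 0.05, and crosses are differences of group means without a test. Slc6a15 and Slc1a6 lie right of 0 and Slc6a7 left of 0 in all 4 lines, while Slc38a9 lies near 0 in knockout cells only; values of Slc6a11 and Slc6a12 rest on groups without counts.

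Knockout was then set against floxed cells, the comparison for loss of MLL4 in cells without MLL3. In naive knockout against floxed cells 6 rose and 2 fell of 27 tested, where 17.7% of all genes passed (8.32% higher, 9.39% lower). In formative cells 6 rose and 4 fell of 27, where 17.9% passed (11.1% higher, 6.8% lower). Higher in both states were Slc7a11, Slc43a2, Slc36a4 and Slc38a6, and lower in both was Slc6a15. The share of all genes called alike in both states is not given here. Naive counts fell to 5 without naive floxed library c. Formative counts fell to 6 without formative floxed library b, formative knockout library a or formative knockout library b, and to 5 with the formative knockout column as deposited.

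**Figure D3:**
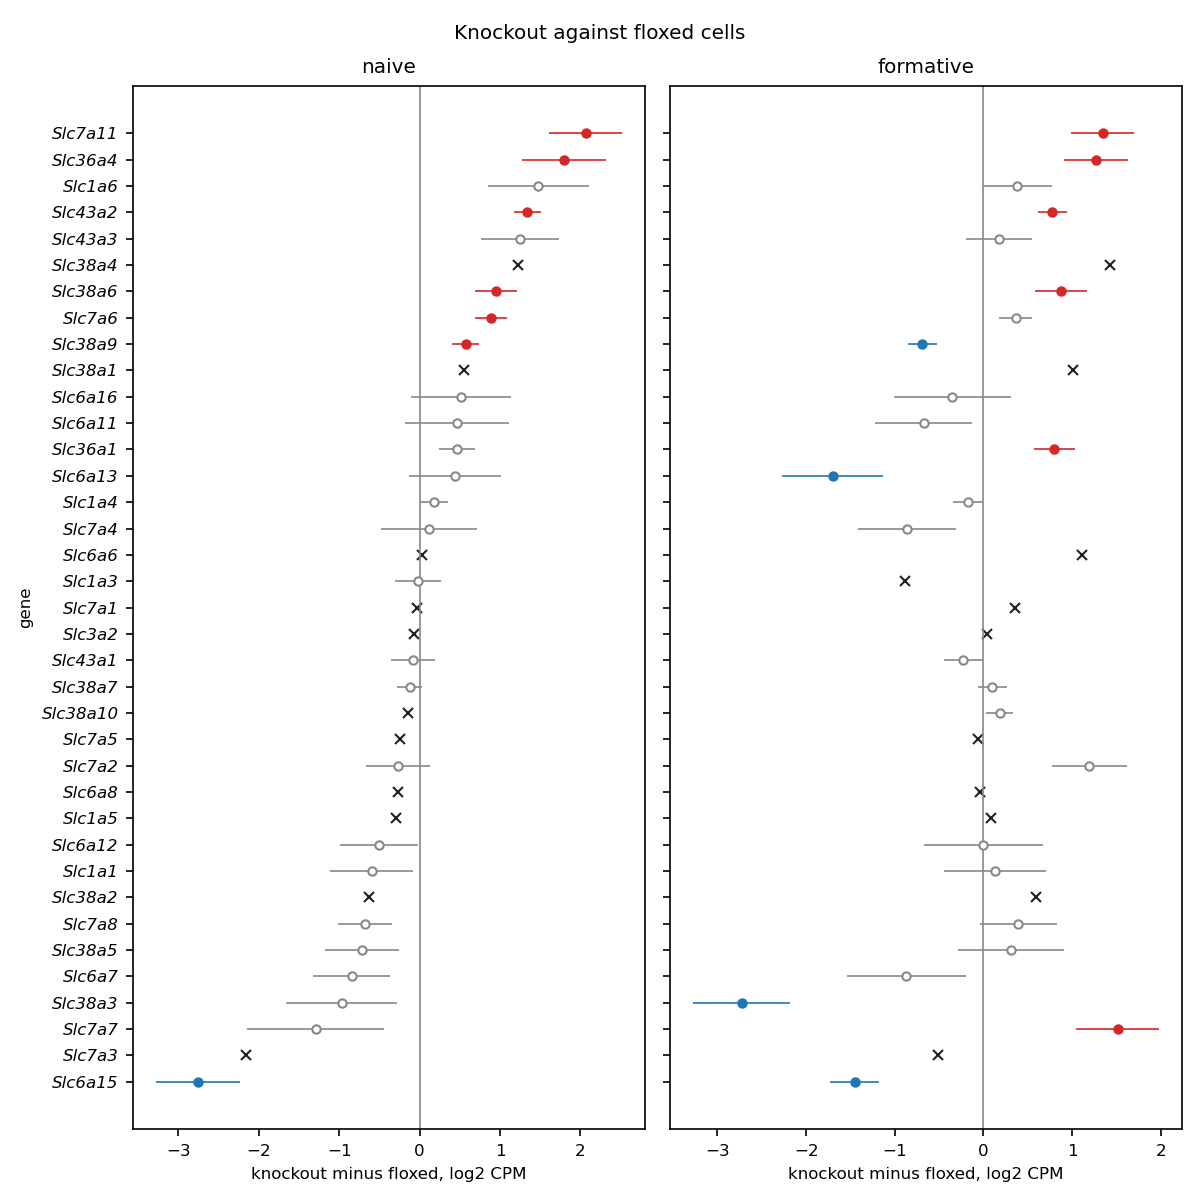
Knockout minus floxed level (log2 CPM) in naive (left) and formative cells (right). Circles with SE are limma estimates, red where they rose and blue where they fell, open where they did not pass, and crosses are untested differences of means. Slc7a11 lies at 2.06 and 1.34 and Slc6a15 at -2.75 and -1.45, and Slc7a3, at -2.16, is the lowest untested carrier in naive cells.

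Catalytic-dead cells were compared with wild type in the same way. In naive cells 3 rose and 2 fell of 28 tested, against 11.1% of all genes (6.46% higher, 4.65% lower), and in formative cells 1 rose and 2 fell of 29, against 8.47% (4.9% higher, 3.57% lower). The naive count fell to 1 without naive wild-type library a or b and to 3 without naive catalytic-dead library c. Over all genes 853 were higher and 614 lower in this naive comparison, 595 and 869 with size factors, and 231 and 317 without naive wild-type library a. The formative count fell to 1 without formative catalytic-dead library b. Floxed against wild-type cells gave 1 that rose of 27 in the naive state, against 5.09% of all genes (2.02% higher, 3.07% lower), and 2 that rose and 4 that fell of 27 in the formative state, against 9.66% (4.22% higher, 5.43% lower). The single naive call, Slc1a4, was lost without naive wild-type library a or b or naive floxed library a. These comparisons share control groups with the transitions, so they are set side by side only.

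The heavy chain Slc3a2 was among the most abundant carriers in every group. It stood at 171 and 242 CPM in the naive wild-type libraries and at 258 CPM in naive floxed, 246 CPM in naive knockout and 281 CPM in naive catalytic-dead cells. Formative means were 319 CPM in wild-type, 329.9 CPM in floxed, 340.1 CPM in knockout and 300.2 CPM in catalytic-dead cells. The group means thus differed by less than 2-fold throughout. Its main partner for leucine uptake, Slc7a5, stood at 69.0 and 96.6 CPM in the naive wild-type libraries and at means of 95.4 to 159.9 CPM in the other groups. In none of the 10 comparisons of 2 groups did its means differ by 2-fold either.

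Slc7a11, the light chain that exchanges cystine for glutamate, rose over the transition in 3 lines and was higher in knockout than floxed cells in both states. Its libraries held 0.492 and 0.226 CPM in naive wild-type, 1.40, 0.865 and 0.302 CPM in naive floxed, 3.70, 4.08 and 3.59 CPM in naive knockout, and 1.12, 1.52 and 3.12 CPM in naive catalytic-dead cells. Every naive knockout library lay above every other naive library. Formative libraries held 3.31, 1.57 and 2.26 CPM in wild-type, 2.98, 1.78 and 2.33 CPM in floxed, 7.42, 6.99 and 4.58 CPM in knockout, and 6.01, 8.51 and 4.62 CPM in catalytic-dead cells. Knockout exceeded floxed cells by 2.06 log2 in the naive state (SE 0.45, adjusted p = 0.00138, limma) and by 1.34 in the formative state (SE 0.35, adjusted p = 0.0085). Formative catalytic-dead cells exceeded wild type by 1.36 (adjusted p = 0.0111). In the naive state that difference was 1.84 and did not pass (adjusted p = 0.0595). Over the transition it rose by 2.18 in wild-type, 1.40 in floxed and 1.70 in catalytic-dead cells, and the change in knockout cells was 0.68 (adjusted p = 0.127). The difference of transitions between knockout and floxed cells was -0.72 (SE 0.57, adjusted p = 0.502), so a smaller rise in knockout cells was not shown. Of these calls, wild-type transition was lost without naive wild-type library b (adjusted p = 0.0819), floxed transition without naive floxed library c or formative floxed library a (up to 0.155), formative knockout without its library a (0.0518) and formative catalytic-dead without its library b or formative wild-type library b (up to 0.073). With the contrast's groups alone the floxed transition also failed (adjusted p = 0.0645, limma), and without weights the formative catalytic-dead call (0.0545). The naive knockout rise passed under every alternative tried.

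The other light chains each followed their own course. Slc7a7, which exports cationic amino acids, held 1.26 and 0.226 CPM in naive wild-type and 4.39, 6.08 and 6.78 CPM in formative wild-type libraries. In knockout cells it went from 0.389, 0.71 and 0.248 CPM to 17.1, 15.3 and 4.37 CPM, a rise of 4.10 log2 (SE 0.73, adjusted p = 8.68e-05, limma), the highest fitted rise of any carrier there. It rose by 2.88 in wild-type cells (adjusted p = 0.00587, but 0.107 without naive wild-type library b) and by 2.35 in catalytic-dead cells (adjusted p = 0.0102). In floxed cells the change was 1.29 (adjusted p = 0.128), with 2.42, 0.384 and 2.11 CPM in naive and 2.37, 3.22 and 5.78 CPM in formative libraries, which overlapped. Formative knockout exceeded formative floxed cells by 1.51 (adjusted p = 0.0235), a call lost without library a or b of either group (adjusted p up to 0.139). The same call failed without weights (0.0639), with the contrast's groups alone (0.0712) and with the formative knockout column as deposited (0.0792). Slc7a7 overlaps Oxa1l on the opposite strand, which stood at 45.1 to 81.4 CPM, and no source used here says whether reads were counted by strand. Its relative Slc7a6 rose in naive knockout against floxed cells by 0.89 (SE 0.19, adjusted p = 0.00137), from 17.6, 13.9 and 20.4 CPM to 28.0, 33.6 and 34.3 CPM without overlap.

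Slc7a8, a light chain for neutral amino acids, stood out in 1 group. The naive catalytic-dead mean was 26.8 CPM, where the other 7 groups had libraries of 1.10 to 7.86 CPM. Naive wild-type libraries held 2.04 and 2.72 CPM, so the means differed by 3.39 log2 (10.5-fold), and by -3.74 over the catalytic-dead transition. Of 3418 genes untested in the first of these comparisons, 3 (0.0878%), itself among them, were as far or farther up. There was no test because 2 sets of counts give the deposited mean. One is 193, 264 and 132 counts (21.6, 40.2 and 21.7 CPM), and the other 232, 186 and 156 counts (25.9, 28.3 and 25.6 CPM). In both sets every catalytic-dead library lay above every library of the other groups. In floxed cells Slc7a8 fell over the transition by 1.48 (SE 0.37, adjusted p = 0.00272, limma), from 5.03, 3.65 and 7.86 CPM to 1.53, 1.10 and 3.08 CPM.

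Among the cationic carriers, Slc7a3 was low in the naive cells of both mutants. It stood at 194 and 282 CPM in the naive wild-type libraries and at a mean of 300.2 CPM in naive floxed cells, against 67.2 CPM in naive knockout and 75.7 CPM in naive catalytic-dead cells. Knockout was thus 4.47-fold below floxed (-2.16 log2), and catalytic-dead 3.09-fold below wild type (-1.63 log2). Of the genes untested in these comparisons, 0.664% and 0.322% were as far or farther down, where 3.51% and 1.38% were at least 2-fold lower. In formative cells the means were 402 CPM in wild-type, 377 CPM in floxed, 264 CPM in knockout and 293 CPM in catalytic-dead cells. Over the transition its level was higher by 1.97 in knockout and 1.95 in catalytic-dead cells, and by 0.78 and 0.33 in wild-type and floxed cells. These values carry no test. For scale, the SD between libraries of recovered genes with at least 100 counts had medians of 0.17 to 0.26 log2 in the 8 groups, and 95th percentiles of 0.39 to 0.66.

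Slc7a1, the widely expressed arginine carrier, showed the reverse order between states. Its naive libraries in wild type held 124 and 92.5 CPM, and the other naive means were 121 to 135 CPM. Formative means were 43.3 to 55.5 CPM, lower by 1.08 in wild-type, 1.52 in floxed, 1.12 in knockout and 1.41 log2 in catalytic-dead cells, without a test. Slc7a2, an inducible arginine carrier, held 2.38, 4.71 and 3.99 CPM in formative wild-type and 1.45, 1.19 and 0.746 CPM in formative floxed libraries, a fall of 1.53 (SE 0.39, adjusted p = 0.011, limma). That call was lost without formative wild-type library b or formative floxed library c (adjusted p up to 0.0628). Slc7a4, a relative of the cationic carriers, was called once, in the wild-type transition (1.90, adjusted p = 0.0367), and lost that call without naive wild-type library a or b or formative wild-type library a or b.

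**Figure D4:**
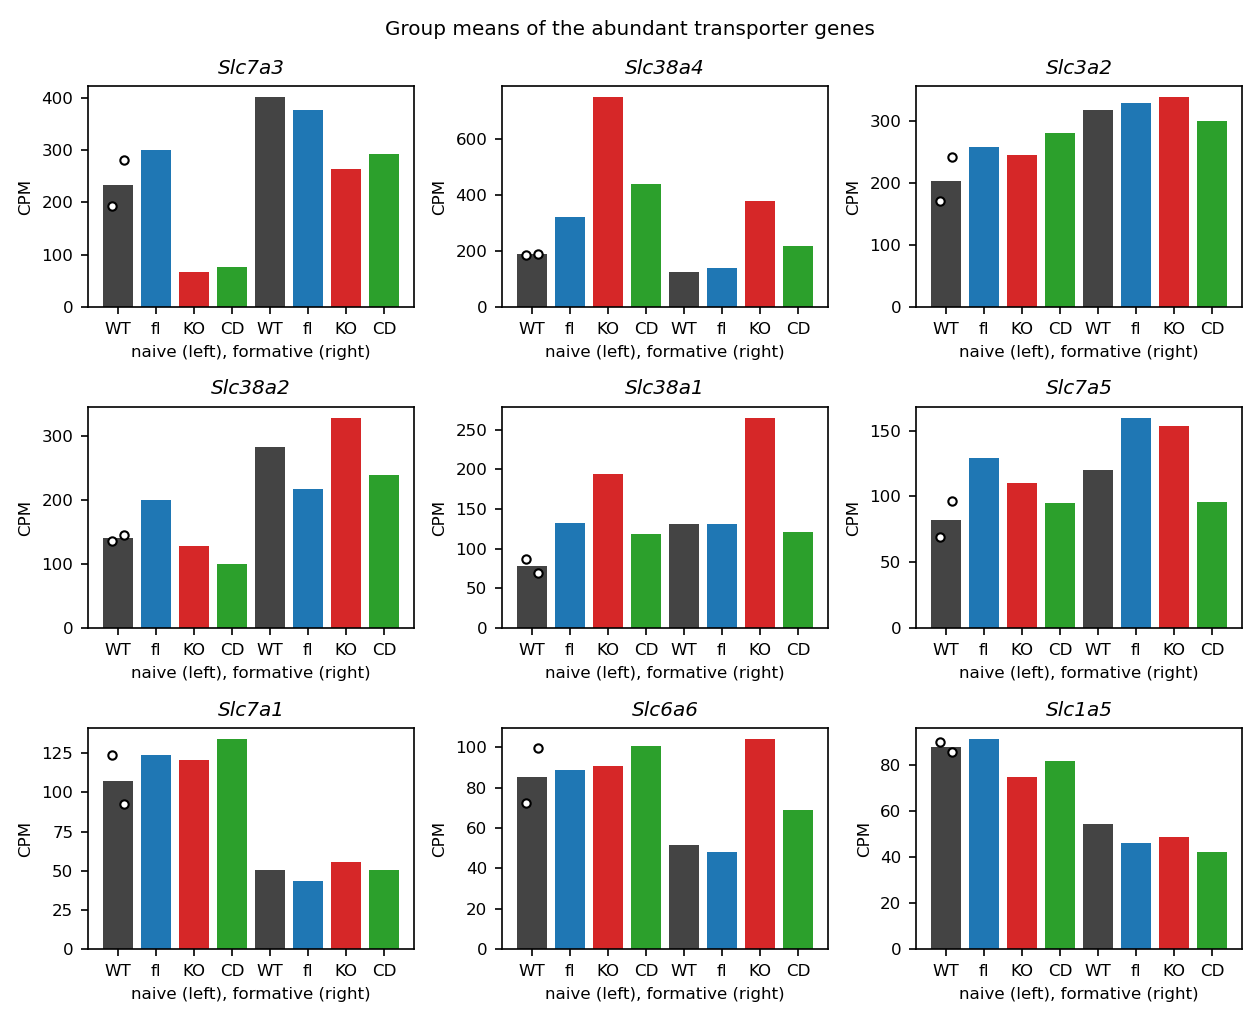
Group means (bars, CPM, from 0) of 9 abundant carriers in naive (left 4 bars) and formative cells (right 4 bars); open points are the 2 recovered naive wild-type libraries. Slc7a3 is at 67.2 and 75.7 CPM in naive KO and CD cells, Slc38a4 reaches 751 CPM in naive KO cells, and Slc7a1 is lower in all 4 formative groups. Formative KO bars are estimates where the library shared with CD was not recovered.

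In the Slc1 family the neutral carrier Slc1a5 and the glutamate carrier Slc1a3 differed between states in opposite directions. Slc1a5, which brings in glutamine, held 89.7 and 85.6 CPM in naive wild-type libraries and a mean of 54.2 CPM in formative wild-type cells. Its means were lower after the transition by 0.70 in wild-type, 0.99 in floxed, 0.62 in knockout and 0.95 log2 in catalytic-dead cells, without a test. Slc1a3 (GLAST) went from 5.13 and 9.28 CPM to 40.7, 48.2 and 41.7 CPM in wild-type cells. It rose by 2.62 log2 (SE 0.26, adjusted p = 4.04e-08, limma), by 2.49 in catalytic-dead cells (27.3, 28.9 and 32.2 CPM after) and by 2.02 in knockout cells (23.1, 18.8 and 30.8 CPM after). Each of these 3 calls passed under every alternative tried. Formative floxed cells had a mean of 44.2 CPM, 7.42-fold (2.89 log2) above naive floxed cells and untested. The formative difference between catalytic-dead and wild-type cells, -0.56, did not pass (adjusted p = 0.0582).

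Slc1a4 (ASCT1), which exchanges alanine, serine and cysteine, was lowest in naive wild-type cells. It held 8.29 and 7.24 CPM there, against 14.8, 13.3 and 12.5 CPM in naive floxed, 16.4, 12.6 and 17.3 CPM in naive knockout and 14.3, 15.5 and 13.6 CPM in naive catalytic-dead libraries, without overlap. Formative libraries held 30.2, 27.6 and 24.2 CPM in wild-type, 20.3, 19.6 and 21.1 CPM in floxed, 20.7, 18.4 and 15.2 CPM in knockout and 23.3, 20.2 and 21.7 CPM in catalytic-dead cells. The wild-type rise was 1.79 log2 (SE 0.20, adjusted p = 1.38e-07, limma). It rose by 0.58 in floxed and by 0.58 in catalytic-dead cells, and the change in knockout cells was 0.23 (adjusted p = 0.371). The catalytic-dead rise was smaller than the wild-type rise by 1.21 log2 (SE 0.27, adjusted p = 0.00967), a call lost when library a of naive wild type was left out (-1.30, adjusted p = 0.0532). The floxed rise did not pass with size factors (adjusted p = 0.0652), nor the catalytic-dead rise without naive catalytic-dead library c or formative catalytic-dead library a (up to 0.0538). Naive catalytic-dead cells exceeded wild type by 0.88 (adjusted p = 0.00926), which did not pass without naive wild-type library a or b (up to 0.0763).

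The glutamate carriers Slc1a1 and Slc1a6 were both low. Slc1a6 held 0.843 and 0.226 CPM in naive and 2.67, 2.35 and 3.32 CPM in formative wild-type libraries, and rose by 2.14 in wild-type, 2.65 in floxed, 1.55 in knockout and 2.58 log2 in catalytic-dead cells. The wild-type rise did not pass without naive wild-type library b (adjusted p = 0.176), nor the knockout rise without naive knockout library a or formative knockout library c (up to 0.0867). Slc1a1 fell in catalytic-dead cells, by 2.62 (SE 0.50, adjusted p = 0.000224, limma), from 8.94, 6.69 and 6.73 CPM to 0.501, 3.22 and 0.578 CPM. In the other lines its changes were -1.22, -0.69 and 0.03 in wild-type, floxed and knockout cells and did not pass. The difference between the catalytic-dead and wild-type transitions was -1.40 (SE 0.72, adjusted p = 0.325).

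Within Slc38, the system A carriers Slc38a1, Slc38a2 and Slc38a4 were abundant, and their group means, which have no test, lay apart between some lines. Slc38a4, an imprinted gene in mouse, stood at 187 and 190.4 CPM in naive wild-type libraries and at naive means of 321 CPM in floxed, 751 CPM in knockout and 438 CPM in catalytic-dead cells. Formative means were 127 CPM in wild-type, 141 CPM in floxed, 378 CPM in knockout and 219 CPM in catalytic-dead cells. Knockout exceeded floxed cells 2.34-fold in the naive and 2.69-fold in the formative state, and catalytic-dead exceeded wild type 2.32-fold in naive cells. All 4 lines had lower means after the transition, by 0.58 to 1.19 log2. Its neighbour Slc38a1 had an estimated mean of 265 CPM in formative knockout against 131 CPM in formative floxed cells (2.02-fold). Slc38a2 (SNAT2), which is induced when amino acids are short, held 137 and 146 CPM in naive wild-type libraries and had means of 200.0, 129 and 101 CPM in naive floxed, knockout and catalytic-dead cells. Formative means of Slc38a2 were 283 CPM in wild-type, 218 CPM in floxed, 329 CPM in knockout and 239.5 CPM in catalytic-dead cells, higher by 1.0, 0.12, 1.35 and 1.25 log2 in that order. None of these 3 was tested. They lie on chromosome 15 of GRCm38, Slc38a1 at 96571418 to 96642913, Slc38a2 at 96687392 to 96699730 and Slc38a4 at 96994820 to 97055956, all on the minus strand.

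Slc38a9, the lysosomal arginine sensor, rose over the transition in 3 lines and not in knockout cells. Naive libraries held 16.5 and 15.6 CPM in wild-type, 11.8, 14.0 and 11.6 CPM in floxed, 17.9, 19.5 and 18.4 CPM in knockout and 18.2, 18.9 and 22.0 CPM in catalytic-dead cells. Formative libraries held 37.0, 42.6 and 44.8 CPM in wild-type, 27.0, 28.1 and 30.04 CPM in floxed, 18.9, 19.3 and 14.8 CPM in knockout and 37.3, 48.4 and 48.1 CPM in catalytic-dead cells. Formative knockout libraries overlapped with the naive ones, and in each other line the 2 states were apart. It rose by 1.35 in wild-type (SE 0.17, adjusted p = 8.91e-07, limma), 1.17 in floxed and 1.17 log2 in catalytic-dead cells, and the knockout change was -0.08 (adjusted p = 0.765). The knockout transition was smaller than the floxed one by 1.26 log2 (SE 0.24, adjusted p = 0.000948), where 8.61% of all tested genes differed, and no other of 26 tested carriers passed. Leaving out any single library gave -1.34 to -1.14 and kept the call. With the formative knockout column as deposited, which includes the catalytic-dead library of 48.1 CPM, it was -0.90 (adjusted p = 0.137). The catalytic-dead and wild-type transitions differed by -0.19 (SE 0.24, adjusted p = 0.748). Between lines, knockout exceeded floxed cells by 0.57 in the naive state (adjusted p = 0.0194) and was below them by 0.69 in the formative state (adjusted p = 0.00379). The naive call was lost without naive floxed library a or c or naive knockout library b (adjusted p up to 0.0726), and the formative one with the column as deposited (-0.33, adjusted p = 0.399). Formative floxed cells lay below formative wild type by 0.54 (adjusted p = 0.0153), which did not pass without formative wild-type library c or formative floxed library a (up to 0.0668).

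The less abundant Slc38 genes changed singly. Slc38a3, a glutamine carrier that can run in both directions, rose in floxed cells from 1.49, 1.44 and 0.453 CPM to 7.03, 4.66 and 5.97 CPM, by 2.30 log2 (SE 0.51, adjusted p = 0.000863, limma). Formative knockout libraries held 1.40, 0 and 2.08 CPM, lower than floxed by 2.72 (SE 0.55, adjusted p = 0.000756). Both calls passed under every alternative tried, and the transitions of the 2 lines differed by -1.76 (SE 0.88, adjusted p = 0.239). Formative floxed exceeded formative wild-type cells by 1.73 (adjusted p = 0.0169, limma), a call lost without library a of either group or without weights (up to 0.121). Its close relative Slc38a5 held 0.983 and 2.49 CPM in naive and 0.576, 0.392 and 0.399 CPM in formative wild-type libraries. It fell in wild-type (by 1.45), floxed (by 2.33) and catalytic-dead cells (by 2.12). With a prior count of 0.5, without weights and with the contrast's groups alone the wild-type call was lost (adjusted p up to 0.0842, limma). The wild-type fall did not pass without naive wild-type library b or without formative wild-type library a, b or c (adjusted p up to 0.368). Slc38a6 was higher in knockout than floxed cells in both states, by 0.95 and 0.87, and lower in formative floxed than wild-type cells by 1.11 (adjusted p = 0.00832). These calls did not pass without naive floxed library c (0.0673), without library a or b of either formative group (up to 0.169), and without formative floxed library b (0.0713), respectively. The formative knockout call of Slc38a6 also failed with size factors (0.0584), with the contrast's groups alone (0.0811) and with the column as deposited (0.0696). Slc38a7, a lysosomal glutamine exporter, fell in wild-type cells by 0.62 (adjusted p = 0.00627, but 0.0524 without formative wild-type library c). Slc38a10 held 29.3 to 51.4 CPM over its recovered libraries and fell in catalytic-dead cells by 0.47 (adjusted p = 0.0204), a call lost without naive catalytic-dead library b or formative catalytic-dead library c (up to 0.131).

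**Figure D5:**
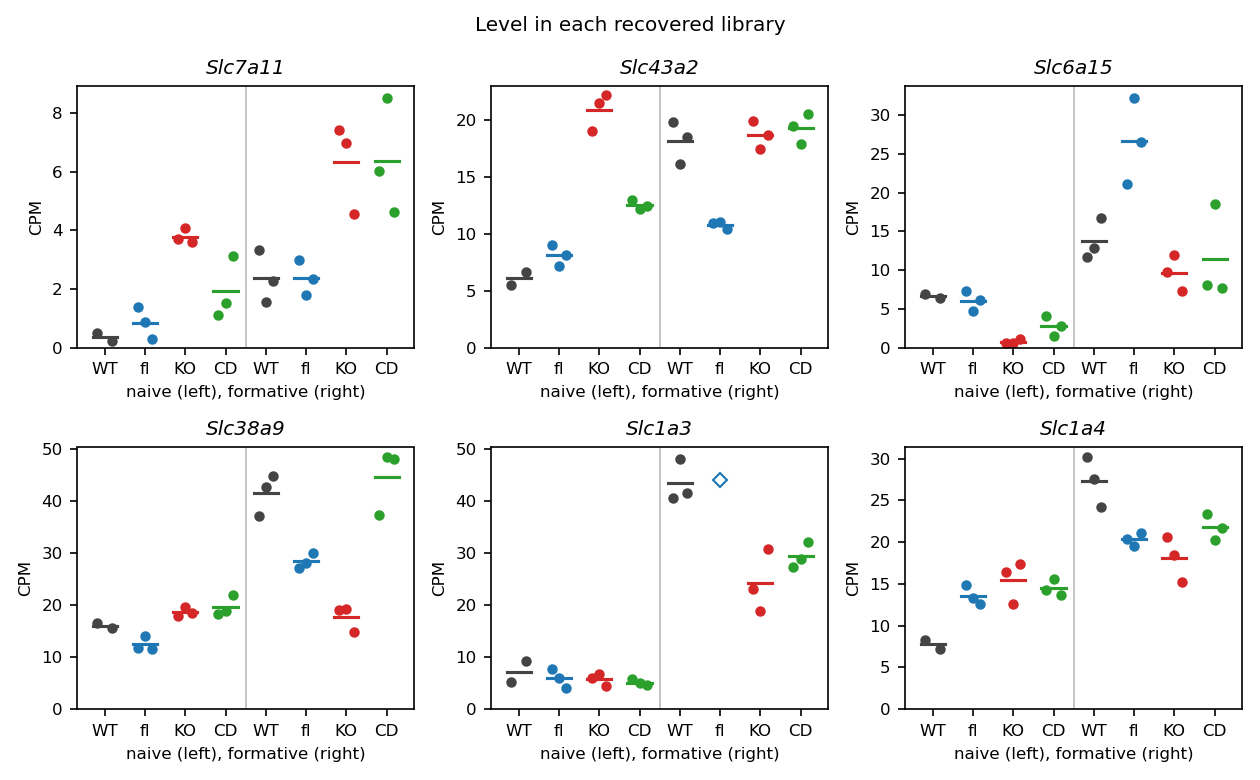
Level (CPM) of 6 carriers in each recovered library (points) with the group mean of libraries (line), naive left and formative right; the open diamond is a group mean without recovered libraries. Slc38a9 knockout points stay between 14.8 and 19.5 CPM in both states, and the Slc43a2 and Slc7a11 points of naive knockout cells lie above all other naive points.

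Slc43a1 and Slc43a2 let large neutral amino acids through by facilitated diffusion, and all 3 genes of the family rose in wild-type cells. Slc43a2 (LAT4) held 5.48 and 6.67 CPM in naive wild-type, 9.04, 7.21 and 8.16 CPM in naive floxed, 19.0, 21.5 and 22.2 CPM in naive knockout and 13, 12.2 and 12.5 CPM in naive catalytic-dead libraries. The 4 naive groups did not overlap. Formative libraries held 19.8, 16.1 and 18.5 CPM in wild-type, 10.9, 11 and 10.5 CPM in floxed, 19.9, 17.4 and 18.7 CPM in knockout and 19.5, 17.9 and 20.5 CPM in catalytic-dead cells, so only the floxed group was apart. Knockout exceeded floxed cells by 1.34 log2 in naive (SE 0.17, adjusted p = 1.89e-06, limma) and by 0.78 in formative cells (SE 0.16, adjusted p = 0.00124), and formative floxed was below wild type by 0.73 (SE 0.16, adjusted p = 0.00272). These 3 passed under every alternative tried. Naive catalytic-dead cells exceeded wild type by 1.03 (adjusted p = 0.00241, but 0.0935 without naive wild-type library a). The wild-type rise over the transition was 1.55 and the catalytic-dead rise 0.61, and the difference, -0.93 (SE 0.26, adjusted p = 0.0465), did not pass under 12 alternatives, 10 of which left out 1 library. In the comparison of these 2 transitions 3.26% of all tested genes passed, and Slc43a2 and Slc1a4 were the 2 of 28 tested carriers that did. Gm45606 overlaps Slc43a2 on the opposite strand and had means of 1.33 CPM in naive wild-type, 1.69 CPM in naive floxed, 5.0 CPM in naive knockout and 3.29 CPM in naive catalytic-dead cells, in the same order as Slc43a2. Its part in the result was not tested.

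Slc43a1 (LAT3) rose in all 4 lines, by 1.42 in wild-type (SE 0.28, adjusted p = 0.000241, limma), 1.24 in floxed, 1.09 in knockout and 0.83 log2 in catalytic-dead cells. Wild-type libraries went from 4.35 and 4.98 CPM to 16.6, 11.3 and 11.3 CPM, and catalytic-dead libraries from 3.02, 4.41 and 5.58 CPM to 8.52, 8.04 and 6.5 CPM, in both cases without overlap. The catalytic-dead rise (adjusted p = 0.0319) did not pass with size factors or without library a or b of either state (up to 0.198). Formative catalytic-dead cells lay below formative wild type by 0.73 (adjusted p = 0.0369, limma). This call was lost without formative wild-type library a or any 1 of the 3 catalytic-dead libraries (up to 0.223). It also failed without weights (0.0925) and with the contrast's groups alone (0.0846). Slc43a3, which carries purine bases, rose by 2.56 in wild-type and 1.80 in floxed cells. Naive catalytic-dead libraries held 7.94, 5.63 and 4.10 CPM against 1.33 and 0.226 CPM in wild type, higher by 2.85 (SE 0.58, adjusted p = 0.00158, but 0.0559 without naive wild-type library b). Without that library the wild-type rise did not pass either (adjusted p = 0.058).

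In the Slc36 family, Slc36a4 was higher in knockout than floxed cells in both states and Slc36a1 in the formative state. Slc36a4 held 0.466, 0.384 and 0.302 CPM in naive floxed and 1.56, 1.86 and 2.10 CPM in naive knockout libraries, a rise of 1.80 log2 (SE 0.52, adjusted p = 0.0147, limma, but 0.0567 without naive floxed library c). Formative knockout (3.61, 6.0 and 7.07 CPM) exceeded formative floxed cells (1.45, 2.12 and 2.99 CPM) by 1.27 (adjusted p = 0.0152). That call did not pass without formative floxed library a or formative knockout library b or c, or with the column as deposited (up to 0.0874). Over the transition it rose in floxed (1.98) and knockout cells (1.45) under every alternative tried. Slc36a1, a lysosomal carrier, held 11, 8.81 and 9.80 CPM in formative floxed and 18.7, 15.8 and 17.3 CPM in formative knockout libraries, higher by 0.80 (SE 0.23, adjusted p = 0.0171). It did not pass without formative floxed library b, without formative knockout library a or with the column as deposited (up to 0.218). In wild-type cells it fell by 0.71 (adjusted p = 0.026), a call lost without naive wild-type library b or formative wild-type library a or b (up to 0.178).

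Of the Slc6 family, Slc6a15 was called most often, in 7 of the 10 comparisons of 2 groups. It encodes a carrier of proline and branched-chain amino acids. Naive libraries held 6.88 and 6.34 CPM in wild-type, 7.27, 4.71 and 6.19 CPM in floxed, 0.583, 0.532 and 1.11 CPM in knockout and 4.02, 1.52 and 2.79 CPM in catalytic-dead cells. Formative libraries held 11.7, 12.9 and 16.7 CPM in wild-type, 21.2, 32.2 and 26.5 CPM in floxed, 9.72, 12.0 and 7.28 CPM in knockout and 8.09, 18.5 and 7.66 CPM in catalytic-dead cells. Knockout lay below floxed by 2.75 log2 in naive (SE 0.52, adjusted p = 0.000287, limma) and by 1.45 in formative cells (SE 0.28, adjusted p = 0.000463), without overlap. It rose by 1.02 in wild-type, 2.10 in floxed, 3.40 in knockout and 1.94 in catalytic-dead cells, and the knockout and floxed transitions differed by 1.30 (SE 0.59, adjusted p = 0.182). The naive difference of catalytic-dead from wild-type cells, -1.28, did not pass (adjusted p = 0.0596). The wild-type rise (adjusted p = 0.0196) was lost without naive wild-type library a or b or formative wild-type library c (up to 0.113). Formative floxed exceeded wild type by 0.94 (adjusted p = 0.013, limma). This did not pass without formative wild-type library a, without formative floxed library b or without weights (up to 0.0946).

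Of the low GABA carriers, Slc6a11 was found almost only in formative cells. Slc6a11 had no count in naive wild-type, floxed or catalytic-dead cells. In formative cells it held 1.37, 1.08 and 1.06 CPM in wild-type, 1.15, 0.169 and 1.59 CPM in floxed and 2.72, 2.46 and 4.62 CPM in catalytic-dead libraries. Against a floor of 3 counts over the naive group it was at least 9.25-fold higher in wild-type, 8.83-fold in floxed and 22.0-fold in catalytic-dead cells, and each rise passed. Knockout cells held 0.13, 0 and 0.124 CPM before and 0.902, 0.285 and 0.208 CPM after, which did not pass (1.11, adjusted p = 0.208).

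Slc6a13 (121300227 to 121337733) and Slc6a12 (121343076 to 121365775) lie on the plus strand of chromosome 6 of GRCm38, 5343 bases apart, and changed in opposite directions in wild-type cells. Slc6a12, a betaine and GABA carrier, had no count in any formative library. Naive libraries held 0.983 and 0.792 CPM in wild-type, 1.68, 2.79 and 0.453 CPM in floxed, 0.713, 0.444 and 1.98 CPM in knockout and 0, 0.304 and 0 CPM in catalytic-dead cells. Against a floor of 3 counts over the formative group it was at least 9.59-fold lower in wild-type, 21.4-fold in floxed and 6.68-fold in knockout cells, and each fall passed, the wild-type one not when library a of naive wild type was left out (adjusted p = 0.057). Naive wild-type cells had 21 counts against 2 in catalytic-dead cells, a ratio of 9.83 (95% interval 2.40 to 86.5, exact conditional binomial, counting error only). This difference passed at an adjusted p of 0.0486 (limma) and not without naive wild-type library a or b or naive catalytic-dead library a or c. Slc6a13, a GABA and taurine carrier, held 0.211 and 0.226 CPM in naive and 1.73, 2.45 and 1.99 CPM in formative wild-type libraries, a rise of 2.41 (adjusted p = 0.00394, but 0.0513 without naive wild-type library a). Formative catalytic-dead libraries held 0.215, 0.284 and 0.289 CPM, below wild type by 2.27 (SE 0.54, adjusted p = 0.00735). With a prior count of 0.5 neither this difference nor the wild-type rise passed (adjusted p = 0.0748 and 0.0548, limma). Formative knockout lay below floxed by 1.70 (adjusted p = 0.0381), a call lost without formative floxed library b or c or formative knockout library b or c (up to 0.215).

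Of the remaining Slc6 carriers, Slc6a7 and Slc6a8 were higher in naive cells. Slc6a7, a proline carrier, held 3.72 and 2.49 CPM in naive and 0.072, 0.491 and 0 CPM in formative wild-type libraries. It fell by 3.26 log2 in wild-type (SE 0.62, adjusted p = 0.000175, limma), 1.77 in floxed, 1.79 in knockout and 2.62 in catalytic-dead cells. The floxed fall did not pass without formative floxed library c (adjusted p = 0.0602), nor the knockout fall without naive knockout library a or b or formative knockout library c (up to 0.211). Slc6a8, the creatine carrier, held 71.4 and 77.9 CPM in naive and 32.0, 27.9 and 27.1 CPM in formative wild-type libraries, a fall of 1.36 (SE 0.17, adjusted p = 2.1e-06). Catalytic-dead cells showed a fall of 1.17 (50.1, 56.0 and 49.4 CPM to 21.9, 22.2 and 24.6 CPM), and floxed means were 2.10-fold lower after the transition, untested. Naive catalytic-dead cells lay below wild type by 0.53 (adjusted p = 0.0441), a call lost without any 1 of the 5 libraries concerned (up to 0.141). Slc6a6, the taurine carrier, had an estimated mean of 104 CPM in formative knockout against 48.2 CPM in formative floxed cells, 2.16-fold and untested. Its naive means were 88.7 to 101 CPM in the 3 mutant lines. Slc6a16, an orphan member, was called in no comparison and ranged from 0 to 2.08 CPM.

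Other genes were read from 5 lists, whose counts stand beside 31.9% of all tested genes called in the wild-type transition, 17.7% in naive and 17.9% in formative knockout against floxed cells. The list of further carriers also holds genes for other cargo, among them Slc18a1 and Slc18a2 (monoamines), Slc18a3 (acetylcholine), Slc44a1 (choline) and Slc22a5 (carnitine). Of 20 further carriers measured, 16 were tested in the wild-type transition, where 4 rose and 2 fell, led by Slc16a10, a carrier of aromatic amino acids (3.07, adjusted p = 9.74e-07, limma), and the peptide carrier Slc15a1 (-2.96, adjusted p = 5.76e-07). Slc18a1 and Slc18a3 were among the 4 that rose. In naive knockout against floxed cells 2 rose and 1 fell of 15, with the peptide carriers Slc15a2 higher by 2.44 (adjusted p = 0.000543) and Slc15a1 lower (-2.18, adjusted p = 0.000269). Of 23 ATF4 target genes measured, 4 rose and 3 fell of 10 tested in the wild-type transition, led by the lipoprotein receptor gene Vldlr (2.94) and the transcription factor gene Cebpb (2.90). In naive knockout cells 2 rose and 2 fell of 11 (Vldlr 1.51, Ndrg1 -1.17), and in formative knockout cells none rose and 2 fell of 9. Slc7a11 is a target of the same factor by background knowledge, and was higher in knockout cells in both states. A part of ATF4 in this was not tested. Of 38 genes of lysosomal amino acid sensing, which include Slc38a9, 4 rose and 4 fell of 26 tested in the wild-type transition, led by Castor2 (1.98), a relative of the arginine sensor Castor1, and Tfeb (-1.71), a transcription factor of lysosomal genes. In naive knockout cells 2 rose and 1 fell of 24, led by Castor1 (-1.15) and by Sesn3 (0.69), of the leucine-sensing sestrins. Of 32 synthesis and breakdown genes measured, 1 rose (Prodh, which breaks down proline, 0.96) and 1 fell (Ass1, which acts in arginine synthesis, -1.53) of 7 tested in the wild-type transition. In naive knockout cells 1 rose (Ass1, 1.10) and 3 fell of 11, among them Gldc of glycine breakdown (-1.01). In formative knockout against floxed cells 4 rose and 0 fell of 15 further carriers tested. There 0 rose and 1 fell of 22 lysosomal sensing genes, and 0 rose and 1 fell of 7 synthesis and breakdown genes. All 19 measured tRNA synthetases were too abundant for a test in these comparisons, with a median of 0.04 in the wild-type transition, -0.01 in naive and -0.25 in formative knockout against floxed cells (0.14, 0.01 and 0.07 over all genes).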

How the data were processed

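Per the labels, RNA of 24 samples was made into 3′ tag libraries and sequenced, and the 3 samples of a group were grown and prepared separately. Per the submitters' processing notes, FastQC 0.11.8, MultiQC, cutadapt 2.5, STAR, featureCounts of Subread 1.6.4 and DESeq2 1.34.0 were used with build mm10. Whether reads were counted by strand is not stated. The authors deposited log2 CPM with a prior count of 2, averaged over the libraries of each group. The column CKO was read as the floxed line.

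Whole counts of 23 libraries (named a, b and c by falling depth) were recovered from these averages, for 10773 genes in all groups. The library shared by 2 columns was removed from formative knockout, and its values that could not be recovered were approximated by the mean of the formative catalytic-dead group. This step and the fit were checked on simulated data: for naive knockout against floxed cells, with 11348 genes tested, 4 of 11202 unchanged genes, 7 of 57 changed 1.5-fold, 43 of 53 changed 2-fold and 36 of 36 changed 4-fold were called. Every simulated gene had the same SD between libraries, 0.2 log2, and only genes of middle level were changed. Measured 95th percentiles of the SD were 0.39 log2 in naive knockout and 0.66 in naive floxed cells. These rates therefore do not cover more variable genes or the low carriers, and none were taken for comparisons with the 2 naive wild-type libraries. Abundant genes were not recovered, so tested genes are the less abundant ones.

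Log2 CPM of recovered libraries was fitted in 1 model of 8 groups with limma 3.58.1 (R 4.3.3), weighted per gene and group, for genes with 10 counts at the median library size in at least 3 libraries. Fold changes include the prior count and understate those of low genes. p-values were adjusted over all tested genes. Alternatives were size factors, other filters, a prior count of 0.5, no weights, the contrast's groups alone, the formative knockout column as deposited, and leaving out each library. Genes named with values were the 3 largest calls per comparison, the 2 highest per family, untested genes at least 2-fold apart, 9 carriers chosen by function and the 2 largest calls per list in 2 comparisons; further carriers were described after their values were seen. The members and lists were chosen with earlier results of these data known. Positions are from GENCODE on GRCm38. One member is not reported here by name, though it stays in the fits and counts.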

Additional observations from a re-analysis of the deposited data

Results flagged for a closer look

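A difference between lines in the size of the transition, tested as an interaction in limma, passed for 3 carriers, each with exceptions. Slc38a9, the lysosomal arginine sensor, had a knockout transition smaller than the floxed one (-1.26 log2, adjusted p = 0.000948), which did not pass with formative knockout as deposited (adjusted p = 0.137). Slc1a4, the alanine, serine and cysteine exchanger, had a catalytic-dead transition smaller than the wild-type one (-1.21, adjusted p = 0.00967), which did not pass when library a of naive wild type was left out (adjusted p = 0.0532). Slc43a2, a large neutral amino acid carrier, differed in the same comparison (-0.93, adjusted p = 0.0465) and did not pass under 12 alternatives (adjusted p up to 0.27).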

How the results depend on the processing

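Of 96 called carrier results, 47 passed in every setting, and over 1143 alternative values 994 kept the call, 149 kept the direction without passing and 0 reversed. With the leave-one-out fits set aside, 66 passed in every setting. Failures in settings other than leave-one-out are not all named with the single genes above. Counts of called carriers moved by more than 1.5 times as follows. With the contrast's groups alone, naive catalytic-dead against wild type gave 2, naive floxed against wild type 0, formative floxed against wild type 3 and the catalytic-dead minus wild-type difference of transitions 1. Without weights, formative catalytic-dead against wild type gave 1 and the knockout minus floxed difference of transitions 2. With formative knockout as deposited, formative knockout against floxed gave 5 and the knockout minus floxed difference of transitions 0.

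Leaving out each library in turn gave 12 to 20 called carriers in the wild-type transition, 14 to 16 in the floxed, 6 to 9 in the knockout and 13 to 15 in the catalytic-dead transition. It gave 5 to 8 in naive and 6 to 9 in formative knockout against floxed cells, 1 to 4 (naive) and 1 to 3 (formative) for catalytic-dead against wild type, and 0 to 1 in naive and 4 to 5 in formative floxed against wild-type cells. The differences of transitions gave 1 to 2 (knockout minus floxed; 2 without naive floxed library a, naive floxed library b or formative knockout library c) and 0 to 2 (catalytic-dead minus wild type; 0 with naive wild-type library a left out, and 1 with library b left out, or with naive catalytic-dead library a or b, or formative catalytic-dead library a or b, left out). Over all genes, calls moved by more than 1.5 times without naive wild-type library a (wild-type transition 1460 higher and 1115 lower, naive floxed against wild type 72 and 247, catalytic-dead minus wild-type difference of transitions 119 and 58), without formative wild-type library a (formative catalytic-dead against wild type 324 and 280, formative floxed against wild type 270 and 420) and with formative knockout as deposited (formative knockout against floxed 709 and 480). The contrast's groups alone gave 22 and 89 in naive and 307 and 394 in formative floxed against wild type, and 375 and 283 in naive catalytic-dead against wild type. With size factors, formative catalytic-dead against wild type had 484 genes higher and 538 lower, and 50.0% of carrier calls in naive catalytic-dead against wild type were higher, against 60.0%. No paired analysis was possible because the deposited columns average libraries and carry no replicate number. Counts of 3 or fewer over a group limit Slc6a11 and Slc6a12 to bounds, and the 8 most abundant carriers have no error of their own.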
